A study of Mus musculus with 14 samples.

Results

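The regions described here carried H2A.Z in the epithelium of the embryonic mouse intestine and in no adult library. H2A.Z was mapped by chromatin immunoprecipitation and sequencing (ChIP-seq), and the peaks of all 8 libraries were merged into 45028 union regions. A region was a member when it lay on chromosomes 1 to 19, was under 3000 bp wide, and had a peak in E12.5 replicates 1 and 2 and in E14.5 replicate 1 but in none of the 4 adult libraries. Of the union regions, 818 (1.82%) met this rule, and of the 43299 regions on chromosomes 1 to 19 under 3000 bp, 1.89% did. The members were chosen on these peak calls, so presence and strength in these 7 libraries are given as descriptions with no test. E14.5 replicate 2 was not used in the choice, because its fragment size as estimated by the peak caller MACS, 71 bp, was close to the tag length of 68 bp.

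The samples were epithelial cells of the small intestine from embryos of the stages E12.5 and E14.5, Lgr5+ intestinal stem cells of adult mice (ISC), and enterocytes of adult mice. Each of these 4 cell populations had 2 libraries. All mice were of a mixed C57BL/6 CD1 strain. Embryonic cells were sorted as EpCAM-positive, CD31-negative and CD45-negative, which selects epithelium against endothelium and blood. Adult cells came from males of 2 months (P60) of the line Lgr5EGFP-Cre-ERT, in which the Lgr5 gene drives a green fluorescent protein. ISC were the cells of high fluorescence, and enterocytes were sorted by the same 3 surface markers as the embryonic cells, which include no marker of enterocytes alone. Each sample held 250000 cells, so every library averages over a sorted population. The sex of the embryos and whether replicates came from separate animals or pools are not given in the sources used here. No annotation of the build mm9 was used here, so regions are given by their mm9 position and could not be set beside genes or cell type markers.

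H2A.Z is a variant of histone H2A that remodelling complexes of the SWR1 family exchange into nucleosomes. It is known from nucleosomes beside transcription start sites and at enhancers, and at genes held by Polycomb in stem cells. In the intestine, the embryonic epithelium is a multipotent endodermal layer, whereas Lgr5+ cells of the adult crypt renew it and enterocytes are their absorptive descendants.

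E14.5 replicate 2 was the shallowest library, with 27835048 tags, and enterocyte replicate 2 the deepest, with 41274126. The lists held 6136 to 32131 peaks, the shortest being that of E14.5 replicate 2 and the longest that of ISC replicate 2. Enterocyte replicate 1 also had a short estimated fragment size, 67 bp, against 191 to 247 bp in the libraries other than these. Both ISC libraries were called against a shared input, as were both enterocyte libraries, whereas each embryonic library had its own.

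Absence from every adult list was uncommon among embryonic regions. Peaks were called in all 3 embryonic libraries of the rule in 13624 regions on chromosomes 1 to 19 under 3000 bp. Of these, 8370 (61.4%) had a peak in all 4 adult libraries, 2291 in 3, 1646 in 2 and 499 in 1, which leaves the 818 members, 6.00%. More regions thus lacked all adult libraries than had just 1. The adult libraries come as replicate pairs, and 1595 of the 1646 regions with 2 had both ISC libraries. The rule also used these lists, so no separate class is read from the counts.

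The stem cell lists decided nearly all of the membership. Among the 499 regions with a peak in a single adult library, that library was ISC replicate 2 in 369, ISC replicate 1 in 113, enterocyte replicate 2 in 17 and enterocyte replicate 1 in 0, which allows a share of up to 0.764% (95% Wilson interval, counting error only, as for all intervals here). Of the 837 embryonic regions without a peak in either ISC library, 818 (97.7%, 96.5 to 98.5) also lacked both enterocyte libraries. In the opposite order, 2895 embryonic regions lacked both enterocyte libraries, and 818 of those (28.3%, 26.6 to 29.9) lacked both ISC libraries. Peaks of enterocytes outside ISC regions were rare in general: 1.5% of the regions of enterocyte replicate 1 and 8.55% of those of replicate 2 had no ISC peak. The ISC lists were also longer, with 26925 and 32131 peaks against 14256 and 20483 in the enterocyte replicates. The part of list length in this order was not tested.

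The single adult peaks of these near-members were weak within their own lists. Fold enrichment is the ratio of a peak over its local background as MACS gave it, and a percentile ranks a peak by its −log10 p within its own list. Values of both in several libraries are set side by side for single regions as a description, and no test compared libraries. In ISC replicate 2, the 369 single peaks had a median fold of 2.78 (quartiles 2.59 and 3.04) and a median percentile of 22.7, whereas peaks of the same list in regions of all 4 adult libraries had a median percentile of 84.7. In ISC replicate 1, the 113 single peaks had a median fold of 2.58 and a median percentile of 14.2, against 82.6. Regions just outside the rule held adult peaks from the weak end of the ISC lists. Both classes are set by the number of adult lists with a peak. That favours weak peaks in the near-members and strong ones in regions of all 4 adult libraries, so the contrast follows in part from the choice.

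**Figure D1:**
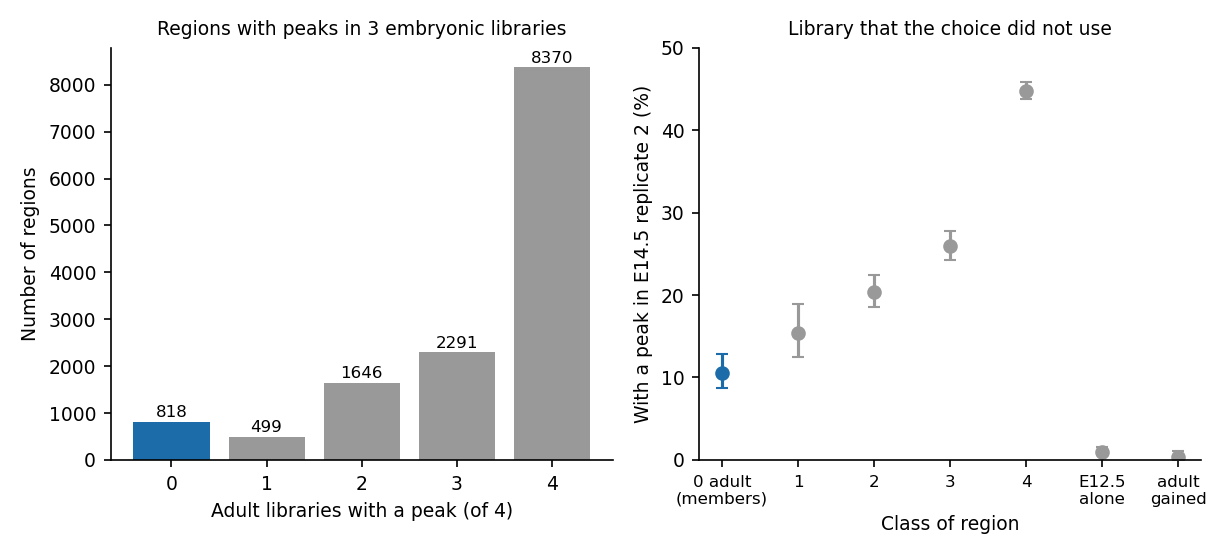
Left, number of regions with peaks in 3 embryonic libraries by the number of adult libraries with a peak (bars, from 0 to 4), of which 818 had none. Right, percent of each class with a peak in E14.5 replicate 2 (points, with 95% Wilson intervals), which was 10.6% in the members, 44.8% in regions of all 4 adult libraries and 1.00% in regions of E12.5 alone.

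E14.5 replicate 2 was the sole library that could show the members independently, and it had a peak in 87 of 818, 10.6% (8.70 to 12.9). Over all 43299 regions in scope the share was 11.8%, over those with a peak in at least 1 other library it was 11.7%, and over the 13624 regions with the 3 embryonic libraries it was 35.6%. The share in the members was thus near the background of all regions and below that of embryonic regions. It was higher with each further adult library, at 15.4% (77 of 499) with 1, 20.4% (18.5 to 22.4) with 2, 26.0% (24.2 to 27.8) with 3 and 44.8% (43.8 to 45.9) with 4. The intervals of neighbouring classes overlapped up to 2 adult libraries and not beyond. These shares come from 1 library and from regions that are not independent, so no test of the differences was made.

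The members stood higher than regions with fewer or none of the 3 embryonic libraries. Regions with peaks in both E12.5 libraries but neither in E14.5 replicate 1 nor in an adult library numbered 1997, and 20 of these (1.00%, 0.649 to 1.54) had a peak in E14.5 replicate 2. Of 505 regions with a peak in E14.5 replicate 1 alone among the 7 libraries, 6 (1.19%, 0.546 to 2.57) did. Regions gained in the adult, with peaks in all 4 adult libraries and none of the 3 embryonic ones, numbered 785 (1.81% of regions in scope), and 3 of these (0.382%, 0.130 to 1.12) did. The regions of E12.5 alone were also weaker than the members in the same list, with a median percentile of 27.9 against 39.9 in E12.5 replicate 1 and of 23.2 against 33.2 in replicate 2, and the part of strength in this difference was not tested.

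The share in E14.5 replicate 2 was higher in the strongest members than in the weakest, though not at every step between. Among members in the lowest 20% of the list of E14.5 replicate 1 it was 6.56% (4.45 to 9.57), and it was 9.96% from there to 40%, 14.3% to 60%, 26.8% (17.0 to 39.6) to 80% and 33.3% (13.8 to 60.9), 4 of 12, above. Regions of all 4 adult libraries had 10.3% (8.06 to 13.1) in the lowest 20%, then 18.5%, 29.4%, 46.8% and 70.4%. In the lowest band the intervals of both classes overlapped, and in the other bands the members lay below with no overlap. By bp covered in E14.5 replicate 1, in bands up to 400, 600, 800 and 1000 bp, the share in members was 5.91%, 11.4%, 21.3% and 18.6% (8 of 43), and that in regions of all 4 adult libraries was 13.7%, 30.7%, 35.0% and 44.2%. The last band of the members was thus not above the one before. By quartiles of fold in E12.5 replicate 1 the shares in members were 8.78%, 12.8%, 12% and 22.5%, against 17.3%, 31.2%, 46.7% and 66.8%. By quartiles of fold in E12.5 replicate 2 the shares in members were 7.56%, 11.4%, 8.96% and 32.2% (19 of 59), so only the uppermost quartile stood clear of the others. By quartiles of fold in E14.5 replicate 1 they were 6.54%, 10.5%, 10.6% and 22.3%.

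**Figure D2:**
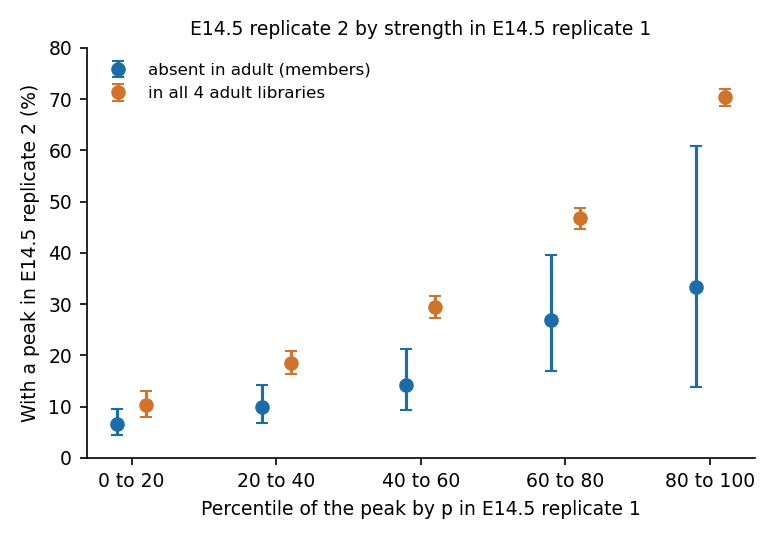
Percent of regions with a peak in E14.5 replicate 2 (vertical axis) by the percentile of the peak in the list of E14.5 replicate 1 (horizontal axis, bands of 20%), for members and for regions of all 4 adult libraries, with 95% Wilson intervals. The members rise from 6.56% to 33.3% and the regions of all 4 adult libraries from 10.3% to 70.4%.

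Where E14.5 replicate 2 did have a peak, it mostly overlapped the others. Peaks were merged where they overlapped or touched, so a peak counted in a member only where it met another there. The overlap is thus largely set in advance and is no independent support for a shared position. In 83 of the 87 members with a peak (95.4%, 88.8 to 98.2), E14.5 replicate 2 overlapped a peak of E14.5 replicate 1 by at least 1 bp. In 81 it overlapped a peak of each of the 3 libraries. In the 87 members this library covered a median of 180 bp (quartiles 121 and 286.5), with a median fold of 3.95 (3.74 and 4.16). Over its whole list the median width was 238 bp and the median fold 3.71, so narrow peaks were not particular to the members. The members with a peak in E14.5 replicate 2 had a median fold of 3.59 in E12.5 replicate 1, 3.36 in replicate 2 and 3.13 in E14.5 replicate 1. The other 731 had 3.35, 3.12 and 2.97. Their median width was 814 bp against 742 bp. Of the 5122 regions in scope with a peak in E14.5 replicate 2, 189 (3.69%) had no adult peak: the 87 members, 48 regions with 1 or 2 of the embryonic libraries of the rule, and 54 with no other library.

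The 6 members that were strongest by fold in E14.5 replicate 2 differed in how they stood in the other lists. The highest, chr16:45365293-45366021, had a fold of 5.52 in E14.5 replicate 2 and 3.73 in E14.5 replicate 1, beside 3.18 in E12.5 replicate 1 and 2.96 in replicate 2. Its percentile was 98.5 in E14.5 replicate 2, 57.0 in replicate 1, and 32.5 and 18.8 in the E12.5 lists. By contrast, chr7:120438495-120439488 stood high in all 4 lists, at percentiles of 98.7 and 73.3 in E14.5 replicates 2 and 1 and of 78.7 and 92.9 in E12.5 replicates 1 and 2. Its fold was 4.63, 3.50, 4.23 and 4.65 in the same order. Another of the 6 highest, chr3:81358475-81359199, had a fold of 4.49 in E14.5 replicate 2, 4.03 in E14.5 replicate 1, and 3.82 and 3.26 in the E12.5 libraries, and its nearest adult peak was 227909 bp away. A further pair, chr6:116911677-116914153 and chr5:8819963-8820807, had 4.54 and 4.53 in E14.5 replicate 2 but were among the weak peaks of E14.5 replicate 1, at percentiles of 13.7 and 4.55. The sixth was chr6:129130452-129131943, which was also among the strongest members described below.

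The members were modest peaks in the 3 embryonic lists of the rule. The median fold was 3.38 in E12.5 replicate 1 (range 2.24 to 6.39), 3.13 in replicate 2 (2.1 to 6.47) and 2.98 in E14.5 replicate 1 (2.06 to 4.48). Regions of all 4 adult libraries had 4.47, 3.71 and 3.25 in the same lists. The median percentile of the members was 39.9, 33.2 and 23.0, against 78.6, 74.6 and 67.7. Regions with 1 adult library were closer to the members, with a median fold of 3.52, 3.18 and 2.98. Their median percentile was 47.3, 40.6 and 28.6, so modest peaks were not particular to the members. In E14.5 replicate 2, 731 members had no peak. The 87 members with a peak had a median fold of 3.95 against 3.69 in regions of all 4 adult libraries. Their median percentile was 38.4 against 54.7, so fold and rank went opposite ways. In the upper 50% of all 3 lists lay 52 members (6.36%). The top 10% of the list was reached by 12 (1.47%) in E12.5 replicate 1, 14 (1.71%) in replicate 2 and 1 (0.122%) in E14.5 replicate 1. A −log10 q of at least 2 was reached in all 3 lists by 384 members (46.9%, 43.5 to 50.4), and a −log10 q of at least 10 in all 3 by 0. List by list, 89.9%, 77.9% and 63.6% of members reached at least 2. The shares in regions of all 4 adult libraries were 99.7%, 98.7% and 94.9%. Counts over all 3 lists were not taken for other classes of region.

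Fold varied among the members with little agreement between the E12.5 libraries and E14.5 replicate 1. Across the 818 members, Spearman's rho was 0.319 between the E12.5 libraries, −0.028 between E12.5 replicate 1 and E14.5 replicate 1, and 0.135 between E12.5 replicate 2 and E14.5 replicate 1. Across the 8370 regions of all 4 adult libraries it was 0.516, 0.373 and 0.435. These are correlations across regions, which share the libraries and their inputs, and the members cover a narrower range of fold. The members were also chosen on peaks in these lists. E14.5 entered through replicate 1 alone, so stage and library cannot be told apart.

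The strongest members were taken as the 12 whose lowest fold over the 3 libraries was highest, which ranged from 3.64 to 4.22. The first, chr11:93905543-93906107, had a fold of 4.28 in E12.5 replicate 1, 4.55 in replicate 2 and 4.22 in E14.5 replicate 1, and no peak in E14.5 replicate 2. Its nearest adult peak was 47428 bp away. The next, chr10:105460579-105461327, had peaks in all 4 embryonic libraries, with a fold of 3.98 and 4.15 in the E12.5 and of 4.23 and 4.19 in the E14.5 replicates, and no adult peak within 181448 bp.

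Fold in different lists has different backgrounds, so values of a member are set side by side with no order read from them. At chr7:103300972-103301901 fold was 5.86 and 4.44 in the E12.5 replicates and 3.92 in E14.5 replicate 1. At chr3:121561581-121562451 it was 4.46 and 4.75 in the E12.5 and 3.77 and 3.90 in the E14.5 replicates, and an ISC peak lay 5403 bp away. At chr12:70537915-70538511 it was 3.95 and 3.75 in the E12.5 replicates and 4.44 in E14.5 replicate 1, and E14.5 replicate 2 had no peak. At chr6:129130452-129131943 fold was 4.19 and 4.39 in the E12.5 and 3.84 and 4.60 in the E14.5 replicates.

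Of these 12 members, 4 had a peak in E14.5 replicate 2. Among the 50 members with the highest lowest fold 11 did (22.0%, 12.8 to 35.2), and among the 50 with the lowest 4 did (8.00%, 3.15 to 18.8).

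**Figure D3:**
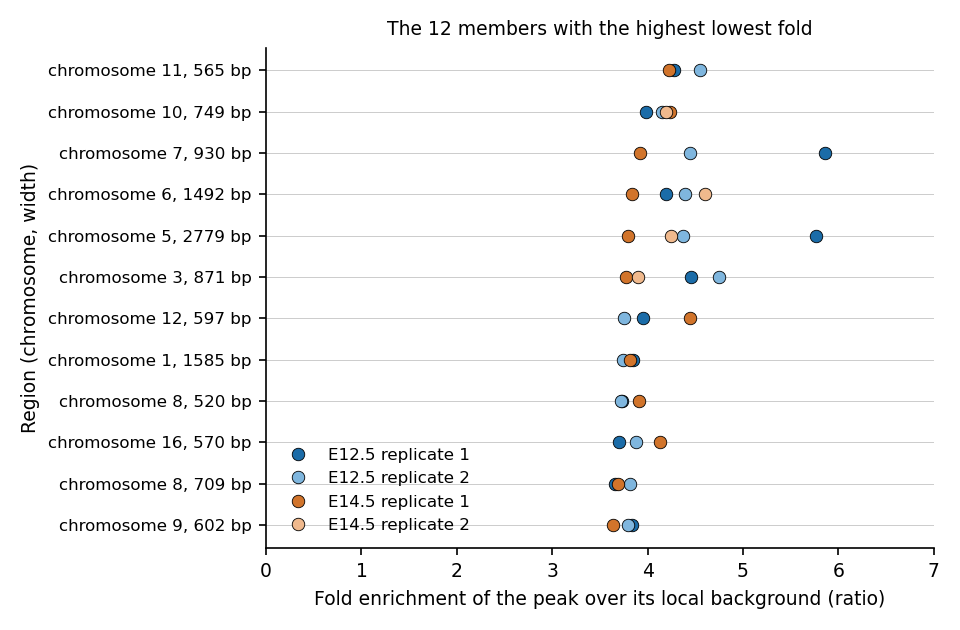
Fold enrichment over the local background (horizontal axis, ratio) in each embryonic library (points) for the 12 members with the highest lowest fold (rows, by chromosome and width). All points of E12.5 and E14.5 replicate 1 lie between 3.64 and 5.86, and 4 rows have a point of E14.5 replicate 2.

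Of the 3 weakest members, 2 rested on a peak near the calling threshold in 1 library. In chr7:20204777-20205184 the E14.5 replicate 1 peak had a fold of 2.06 and a −log10 q of 1.14, beside a fold of 2.60 and 3.65 in the E12.5 replicates. In chr15:84962106-84962454 the E12.5 replicate 2 peak had a fold of 2.1 and a −log10 q of 1.23, beside a fold of 4.05 in E12.5 replicate 1 and 3.17 in E14.5 replicate 1. The third, chr17:48168367-48168979, had 3.09, 2.24 and 2.59 in E12.5 replicates 1 and 2 and E14.5 replicate 1, with a −log10 q of 4.43, 1.84 and 3.20.

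The members were narrow. Their median width was 749.5 bp (quartiles 574.5 and 972.75), against 855 bp with 1 adult library and 1652 bp with 4, and a region that joins more peaks is wider for that reason alone. E12.5 replicate 1 covered a median of 620.5 bp of a member, replicate 2 covered 537 bp and E14.5 replicate 1 covered 403.5 bp. The sequence shared by all 3 had a median of 291 bp (208 and 438), 43.3% of the region, against 54.7% in regions of all 4 adult libraries. In 15 members (1.83%) the 3 libraries shared no base and were joined through overlaps of pairs.

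**Figure D4:**
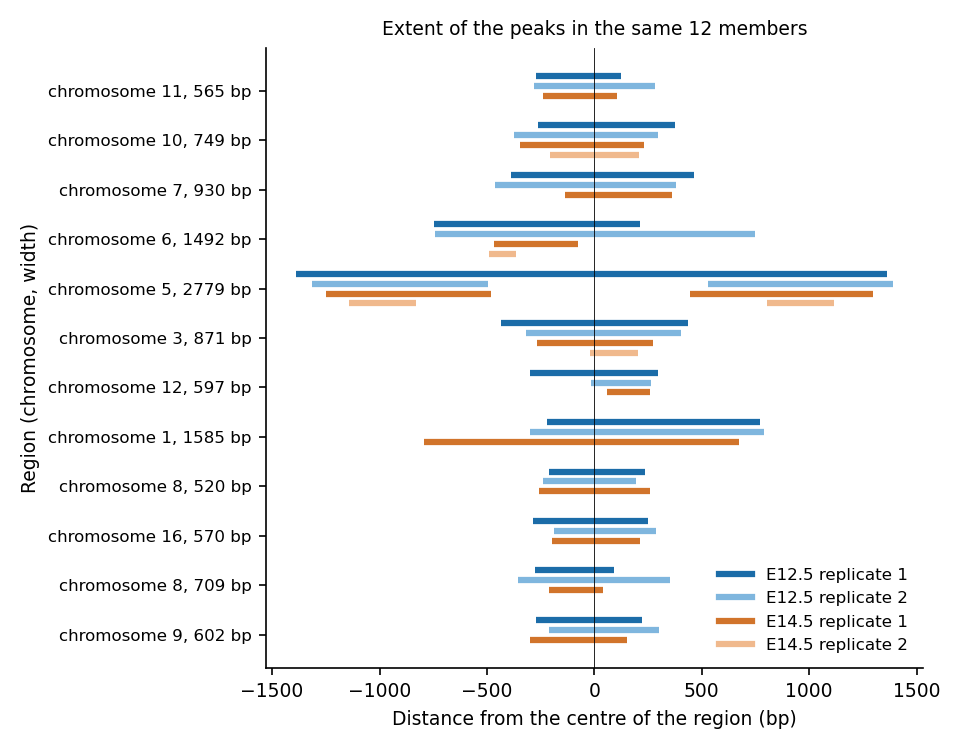
Extent of each peak (horizontal bars) from the centre of the region (horizontal axis, bp) in the embryonic libraries for the same 12 members (rows). The bars of the libraries overlap in every row, with a shared stretch of 203 to 1523 bp over the 3 libraries of the rule, and the region on chromosome 5 has separate blocks on either side of its centre in 3 libraries.

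In all but 2 members, each library had a single peak. The widest member, chr5:37727522-37730300, was an exception. E12.5 replicate 1 covered it with a peak of 2753 bp, and a pair of blocks was called in the other libraries. The blocks lay at 37727597 to 37728417 and 37729439 to 37730300 in E12.5 replicate 2, at 37727664 to 37728431 and 37729355 to 37730207 in E14.5 replicate 1, and at 37727767 to 37728081 and 37729716 to 37730028 in E14.5 replicate 2. Both blocks were therefore seen in the library outside the rule. Fold was 5.77 and 4.37 in the E12.5 and 3.79 and 4.24 in the E14.5 replicates. The other such member, named after its values were seen, was chr7:17575269-17577694. It also had a single peak in E12.5 replicate 1, of 2426 bp, and paired blocks in E12.5 replicate 2 and E14.5 replicate 1, but no peak in E14.5 replicate 2.

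The width limit mattered little. The widest members measured 2779 and 2726 bp, the second being chr17:69469742-69472467, and 3 regions of 3000 bp or more met the rest of the rule. The narrowest of those, chr2:43410609-43413697, measured 3089 bp, and its fold was 2.90, 2.98 and 3.36 in E12.5 replicates 1 and 2 and E14.5 replicate 1. The next, chr2:77139933-77143047, measured 3115 bp, and its fold was 3.33, 3.15 and 2.97.

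Adult H2A.Z was usually called at some distance from the members. The nearest adult peak was a median of 25530 bp away (quartiles 8683 and 96570), and it lay within 1 kb of 19 members (2.32%, 1.49 to 3.6), within 5 kb of 126 (15.4%, 13.1 to 18.0) and within 20 kb of 348 (42.5%, 39.2 to 46.0). Over all 8620 regions in scope with no adult peak inside, 20.9% had 1 within 5 kb. The members were thus not nearer to adult peaks than other regions without one. Among regions of E12.5 alone the median was 18520 bp and the share within 5 kb 19.6% (17.9 to 21.4), which was not tested against the members. The closest member was chr9:44923579-44924259, 83 bp from an ISC peak, and the most distant chr2:87938013-87938762, 2077189 bp from any adult peak. Both were chosen after their values were seen.

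Peaks of ISC were nearer than peaks of enterocytes, whose lists were shorter. The median distance was 26410 bp to an ISC peak and 54380 bp to an enterocyte peak. Adult-gained regions lay within 20 kb of 12 members (1.47%), and regions with peaks in all 8 libraries within 20 kb of 49 (5.99%). The nearest union region of any kind was a median of 15810 bp away, against 11080 bp for regions of all 4 adult libraries and 8831 bp for all regions in scope.

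**Figure D5:**
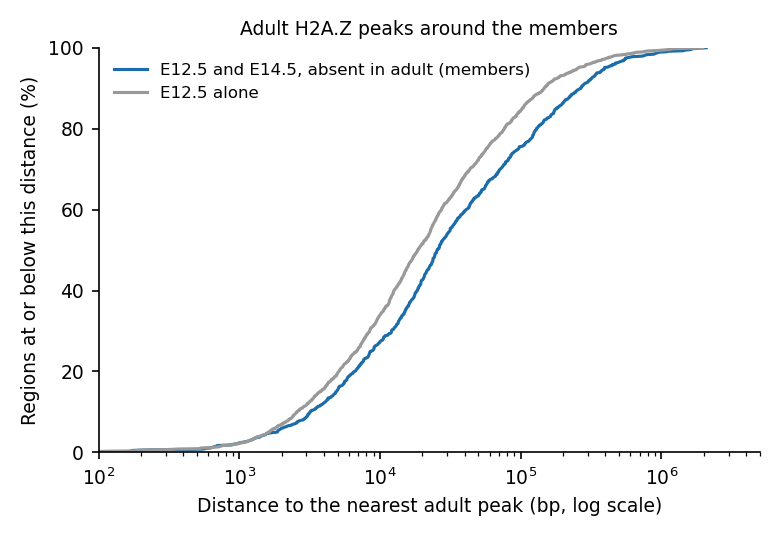
Cumulative percent of regions (vertical axis) by distance to the nearest adult peak (horizontal axis, bp, log scale) for members and for regions with peaks in both E12.5 libraries alone. The members lie to the right over most of the range, with a median of 25530 bp against 18520 bp.

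The members were spread over all autosomes. Their share among the embryonic regions of a chromosome ranged from 4.18% (3.12 to 5.58) on chromosome 11 to 8.82% (6.70 to 11.5) on chromosome 12, beside 6.00% over all. Chromosomes 3 and 14 followed with 8.32% (6.55 to 10.5) and 8.27% (6.24 to 10.9). Of the 47 members of chromosome 12, 1 had a peak in E14.5 replicate 2, and of the 43 of chromosome 11, 8 did, beside 10.6% over all members. No order is read from this pair. Chromosome 17, with a low share of members of 4.44%, had 1 of 27, and chromosome 15, with 7.59%, had 6 of 44. The lowest was chromosome 18, with 0 of 29 at a share of members of 6.89%.

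Most members stood alone. The nearest other member was a median of 721600 bp away, and 123 members (15.0%, 12.8 to 17.6) had another within 100 kb. The same share, each class against itself, was 30.7% among the 1997 regions of E12.5 alone, 19.7% among the 785 gained in the adult and 6.41% among the 499 with 1 adult library. These classes differ in size, which sets how near their regions can lie, so nothing particular to the members is read from the share. In 200 kb windows that share no member, 639 held 1 member, 68 held 2, 10 held 3, 2 held 4 and 1 held 5. The last lay on chromosome 12 from 12715227 to 12911873 and held 17 regions in scope, of which 6 had an adult peak. Its members began at 12715227, 12772695, 12847275, 12892687 and 12911148. The last of these had the highest fold, 5.06 in E12.5 replicate 1, with 2.92 in replicate 2 and 3.21 at E14.5. The others ranged from 3.05 to 3.63 in E12.5 replicate 1, from 2.72 to 3.58 in replicate 2 and from 2.75 to 3.42 in E14.5 replicate 1, and none of the 5 had a peak in E14.5 replicate 2.

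A second group, on chromosome 1 from 69373198 to 69560739, held 4 members among 13 regions in scope, and none of the 13 had an adult peak. The member at 69489937 to 69492120 was the widest of the 4, at 2184 bp, with 3.59 and 2.79 in the E12.5 and 4.10 and 4.46 in the E14.5 replicates as its fold. The other 3 had 2.65 to 3.28 in E12.5 replicate 1, 2.82 to 3.76 in replicate 2 and 3.14 to 3.26 in E14.5 replicate 1, and no peak in E14.5 replicate 2. The nearest adult peaks were 170898 to 239517 bp away.

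The set of members depended on how far down the lists were read. With the 14256 strongest peaks of each library of the rule, 821 regions met it, but 175 of these overlapped a member, and the other 646 had an adult peak in a full list. Without E14.5 replicate 1 in the rule, 2815 regions met it, and 3.80% (3.16 to 4.57) of those had a peak in E14.5 replicate 2. Without enterocyte replicate 1 the number was 818 as before.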

How the data were processed

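The 8 H2A.Z libraries had 1 deposited peak list each; 6 input samples entered through the authors' peak calling alone. The lists were written by MACS 2.1.0.20140616 (broad peaks, q cutoff 0.05, fold limits of 10 and 30 for its fragment model), per the file headers; −log10 q nevertheless reached down to 1.00 to 1.06. Bowtie 1.1.2, SAMtools 1.2, bcl2fastq 1.8.4 and mm9 are named in the submitters' processing notes. The pileup is a coverage signal and the fold enrichment a ratio, both written by MACS per the file headers, as were the deposited −log10 p and −log10 q. Width is end minus start plus 1, as deposited.

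Peaks that overlapped or touched were merged. Each share has a 95% Wilson interval for counting error. No test was made, since 1 library lay outside the rule. Where a library had several peaks in a region, the highest value was taken. The members, lists and classes were chosen with earlier results of these data known; bands of percentile and of bp were added after these values were seen. Named regions were the 12 with the highest lowest fold, the 3 with the lowest, the 6 highest in E14.5 replicate 2, the 2 fullest windows of 200 kb, and the 2 widest members and 2 narrowest regions past the limit. Alternatives were other thresholds, list lengths, overlaps and merging distances, and leaving out each library. The code was tested on simulated lists. Python 3.11.15, pandas 2.3.3 and SciPy 1.17.1 were used. Genes, base composition and motifs, which need mm9, were not analysed here.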

Additional observations from a re-analysis of the deposited data

How the results depend on the processing

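The number of members kept within 1.5 times of 818 under 13 of 18 alternatives. This compares numbers and not regions, so it does not show that the set was stable. The 13 include lists of equal length, where 175 of 821 regions overlapped a member. They also include leaving out enterocyte replicate 1, which was the single adult library in 0 embryonic regions and so could not alter the number. The number was 3 with every list at a −log10 q of at least 10, of which 0 overlapped a member, and 0 with the embryonic lists alone at that level. With every list at a −log10 q of at least 2, chosen after the data were seen, it was 529, of which 384 overlapped a member, and with E14.5 replicate 2 required as well it was 87. Leaving out each library of the rule gave 818 to 2815, the highest without E14.5 replicate 1. The share with a peak in E14.5 replicate 2 was 16.4% at a −log10 q of at least 2, 26.2% with lists of equal length, and 3.80 to 12.3% when a library was left out. With lists of equal length it was 19.4% (34 of 175) in regions that overlapped a member and 28.0% (181 of 646) in the others. At a −log10 q of at least 10 it was 0 of 3. There the list of E14.5 replicate 2 was cut as well, and its highest −log10 q was 10.8, so hardly a peak could remain. The other settings took this share against that list in full, though at a −log10 q of at least 2 it was cut before merging. The share with another member within 100 kb was 10.8% within 50 kb, 26.0% within 250 kb, 0 of 3 at a −log10 q of at least 10, and 15.0 to 38.5% when a library was left out. The share with an adult peak within 5 kb was 2.32% within 1 kb, 42.5% within 20 kb, 0 of 3 at a −log10 q of at least 10, and 11.7 to 18.4% when a library was left out. Fewer peaks remained at the higher thresholds, and shorter rules select more regions by construction; other causes were not tested. No paired analysis was possible because no result comes from a test across samples. The alternatives for gene starts were not run, since they need an annotation of mm9. The absence of an adult peak is an absence from a list, and a weaker adult signal was not measured here.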

Other observations

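Outside chromosomes 1 to 19, 24 regions on the X chromosome had peaks in the 3 embryonic libraries of the rule and in no adult library. They were 7.0% (95% Wilson interval 4.75 to 10.2) of the 343 X regions under 3000 bp with those 3 libraries, beside 6.00% on the autosomes. None of the 24 had a peak in E14.5 replicate 2.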
